A study of Saccharomyces cerevisiae with 18 samples.

Results

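The Rlm1 dependence of the Congo Red response was taken as a difference of responses in budding yeast: the change with the dye in an rlm1 mutant minus the change with the dye in the wild type. It rests on 12 of the 18 arrays of the series, 3 in each of 4 groups: the rlm1 mutant with 30 µg/ml Congo Red, the rlm1 mutant without it, the wild type with the dye and the wild type without it. All 4 groups are in the haploid strain BY4741 and were grown for 4 h, with or without the dye. The other 6 arrays are of a swi3 mutant and enter only the estimate of the spread and 1 short comparison. The labels name the mutant only as rlm1 and say nothing of how the gene was disrupted or of how many clones were used. Values are log2 levels of Affymetrix probe sets, and 5659 features were tested, 5442 of them with a gene name.

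Congo Red attaches to chitin and glucan fibres and so disturbs the building of the yeast cell wall. Wall damage is sensed at the plasma membrane and passed through the GTPase Rho1 and protein kinase C to a cascade of kinases that ends with the MAP kinase Slt2. Slt2 phosphorylates the transcription factor Rlm1, which turns on genes for wall proteins, wall-building enzymes and components of the pathway itself. A second MAP kinase route, calcium signalling through calcineurin and the general stress factors act on some of the same genes.

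The labels were checked against RLM1 itself. With the dye, RLM1 had log2 levels of 5.05, 4.53 and 4.89 in rlm1, and 10.52, 10.44 and 10.37 in the wild type. Without the dye the levels were 4.90, 4.79 and 4.66 in rlm1, and 9.22, 9.39 and 9.16 in the wild type. Each rlm1 array was therefore far below each wild-type array. As a level under 7 is where 36 of 47 reporter probe sets for genes foreign to yeast stayed on every array, it is close to background, and sizes that use such a level are uncertain. Markers of a cells, the mating type of BY4741, had a median level of 11.39 in treated rlm1 and of 11.56 in untreated rlm1, against 12.22 and 12.16 in the treated and untreated wild type, with all 6 above 7 in every group. Of 4 markers of alpha cells, 3 stayed under 7 on every array of both rlm1 groups, and 2 and 3 did so in the treated and untreated wild type.

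The arrays numbered 1 of rlm1 stood apart from the other 10. Their median level was 9.29 with the dye and 9.27 without it, while the other 10 arrays lay between 9.98 and 10.04. The mean difference between 3′ and 5′ probe sets of 7 control genes, which grows with RNA degradation, was 1.03 with the dye and 1.15 without it on these 2 arrays, against 0.72 to 0.86 on the others. On the 6 swi3 arrays, which enter the spread, median levels ran from 9.58 to 9.70 and this control difference from 0.80 to 1.26. Among features, the SD within a group had a median of 0.42 in treated and 0.41 in untreated rlm1, against 0.11 in the treated and 0.10 in the untreated wild type. For this reason 3 fits are given for the difference of responses. The fit of all arrays treats the 3 arrays of a group as independent. The paired fit sets each treated array against the untreated array of the same strain and number. The labels do not give this pairing, which was taken from the data. The third fit leaves out both number 1 arrays of rlm1.

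In the fit of all arrays, 18 of 5659 features (0.318%) had a lower response in rlm1 than in the wild type, 16 of them by at least 2-fold. By limma 0 features (0%) had a higher response, with 74 higher and 112 lower at an unadjusted p under 0.05. The paired fit called 328 features lower (5.8%) and 268 higher (4.74%). Without both number 1 arrays of rlm1, 123 were lower (2.17%) and 47 higher (0.831%). All 18 calls of the fit of all arrays were also made by the other 2 fits. Those fits use the same arrays or a part of them, so this is no further evidence for the calls. With the paired fit and both number 1 arrays of rlm1 left out, a combination chosen after seeing the data, 275 were lower (4.86%) and 221 higher (3.91%). Of the 123 lower calls without the number 1 arrays, 120 were among the 328 of the paired fit, and of the 47 higher calls, 43 were among its 268. The median difference over all features was 0.01, and the median SE of a difference was 0.32 in the fit of all arrays, 0.10 in the paired fit and 0.17 without the number 1 arrays. Leaving out single arrays gave 9 to 52 lower calls, 52 without untreated rlm1 number 1 and 9 without untreated rlm1 number 2, treated wild type number 3 or untreated wild type number 3.

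RLM1 is among the 18, and its disruption fixes that difference, so 17 features describe the dependence. Both responses are terms of the difference that chose these 17, so the values and calls of both are a description. All 17 were called higher with the dye in the wild type (1.57% of all features were), with responses from 1.06 to 5.16 and a median of 1.94. Their responses in rlm1 ran from -0.44 to 0.91 with a median of 0.13, and 0 of the 17 were called there by the fit of all arrays. The paired fit called 3 of them in rlm1: YPS3 and an unnamed probe set were higher, where 1.4% of all features were, and CWP1 was lower, where 0.353% were. When the responses were formed number by number, the 3 values of rlm1 lay below the 3 of the wild type for all 17 features. This order, which 17.2% of all features had, describes the same arrays that gave the calls and is no further evidence for them. Under 24 alternatives 8 of the calls were kept throughout, those of PIR3, KDX1, BAG7, YPL088W, SHH3, YPK2, SLT2 and the unnamed probe set. YNR066C was lost only under quantile normalization (adjusted p = 0.052). The other 9, RLM1 included, were each lost in 7 to 12 alternatives, among them the 3 single arrays without which 9 calls were left.

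**Figure D1:**
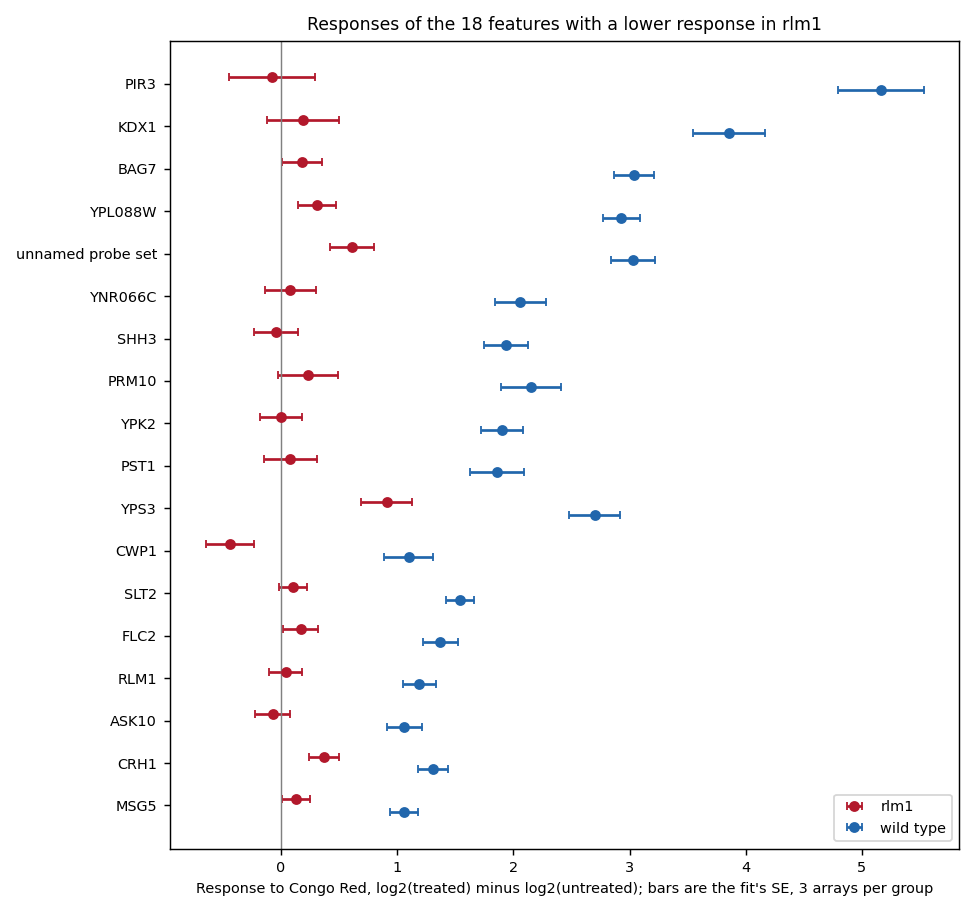
Response to Congo Red (log2 of treated minus untreated, horizontal axis) of the 18 features called lower in the difference of responses, in rlm1 (red, upper) and in the wild type (blue, lower), with the SE of the fit (3 arrays per group). Apart from YPS3 (0.91) and the unnamed probe set (0.61), the rlm1 responses lie between -0.44 and 0.37, and every wild-type response is at least 1.06.

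Among components of the pathway, SLT2, the MAP kinase that activates Rlm1, had levels of 11.03, 11.11 and 11.08 in treated rlm1 and 10.88, 11.02 and 11.01 in untreated rlm1, against 12.57, 12.68 and 12.54 in the treated and 11.12, 11.14 and 10.90 in the untreated wild type. The treated wild type alone stood apart, and the other 9 arrays lay between 10.88 and 11.14. The response was 0.10 ± 0.12 (SE, n = 3) in rlm1 and 1.54 ± 0.12 in the wild type, a difference of -1.44 ± 0.16 (adjusted p = 3e-04). KDX1, a kinase-like relative of Slt2, was at 6.94, 7.94 and 7.96 with the dye and 6.84, 7.69 and 7.73 without it in rlm1. In the wild type it was at 11.12, 11.22 and 11.35 with the dye and at 7.40, 7.56 and 7.15 without it. The difference of its responses was -3.67 ± 0.44 (adjusted p = 4.2e-04), and the number 1 arrays are low in both rlm1 groups.

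MSG5, a dual-specificity phosphatase that acts on Slt2 and on the MAP kinase of the mating pathway, had a smaller difference, -0.93 ± 0.17 (adjusted p = 0.022). Its treated levels were 10.01, 10.18 and 10.20 in rlm1 and 11.15, 11.14 and 11.45 in the wild type, and its untreated levels were 9.91, 10.04 and 10.05 in rlm1 and 10.17, 10.25 and 10.13 in the wild type. PTP2, a tyrosine phosphatase of Slt2 and of the osmotic stress kinase, just missed the threshold in the fit of all arrays (-1.29 ± 0.27, adjusted p = 0.06), but it passed in the paired fit (adjusted p = 5.3e-04) and without the number 1 arrays (adjusted p = 1.7e-04). BAG7, a GTPase-activating protein for Rho1, had levels of 5.82, 5.50 and 5.51 in treated and 5.73, 5.40 and 5.16 in untreated rlm1. It was at 8.31, 8.40 and 8.76 in the treated and 5.49, 5.38 and 5.49 in the untreated wild type, so only the treated wild type was above 7. The difference of -2.86 ± 0.24 (adjusted p = 1.7e-05) is therefore uncertain in size.

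Another 2 signalling proteins were called. YPK2 encodes a protein kinase that is a relative of Ypk1 and acts downstream of target of rapamycin complex signalling at the membrane. Its treated levels were 8.49, 8.70 and 8.79 in rlm1 and 10.57, 10.86 and 11.00 in the wild type, and its untreated levels 8.48, 8.77 and 8.72 in rlm1 and 8.99, 8.95 and 8.78 in the wild type. The response of YPK2 in rlm1 was 0.00 ± 0.18, and the difference was -1.90 ± 0.25 (adjusted p = 0.0013). ASK10, a regulator of the glycerol channel Fps1, had a response of -0.07 ± 0.15 in rlm1 and 1.06 ± 0.15 in the wild type (difference -1.13 ± 0.21, adjusted p = 0.026). Of 26 tested genes of wall integrity signalling, 4 were lower in the fit of all arrays (SLT2, KDX1, BAG7 and RLM1), where 0.318% of all features were. In the paired fit 6 were lower (5.8% of all features were), and without the number 1 arrays 5 were (2.17%). In these 3 fits 0 were higher. The median difference of the 26 was -0.08.

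**Figure D2:**
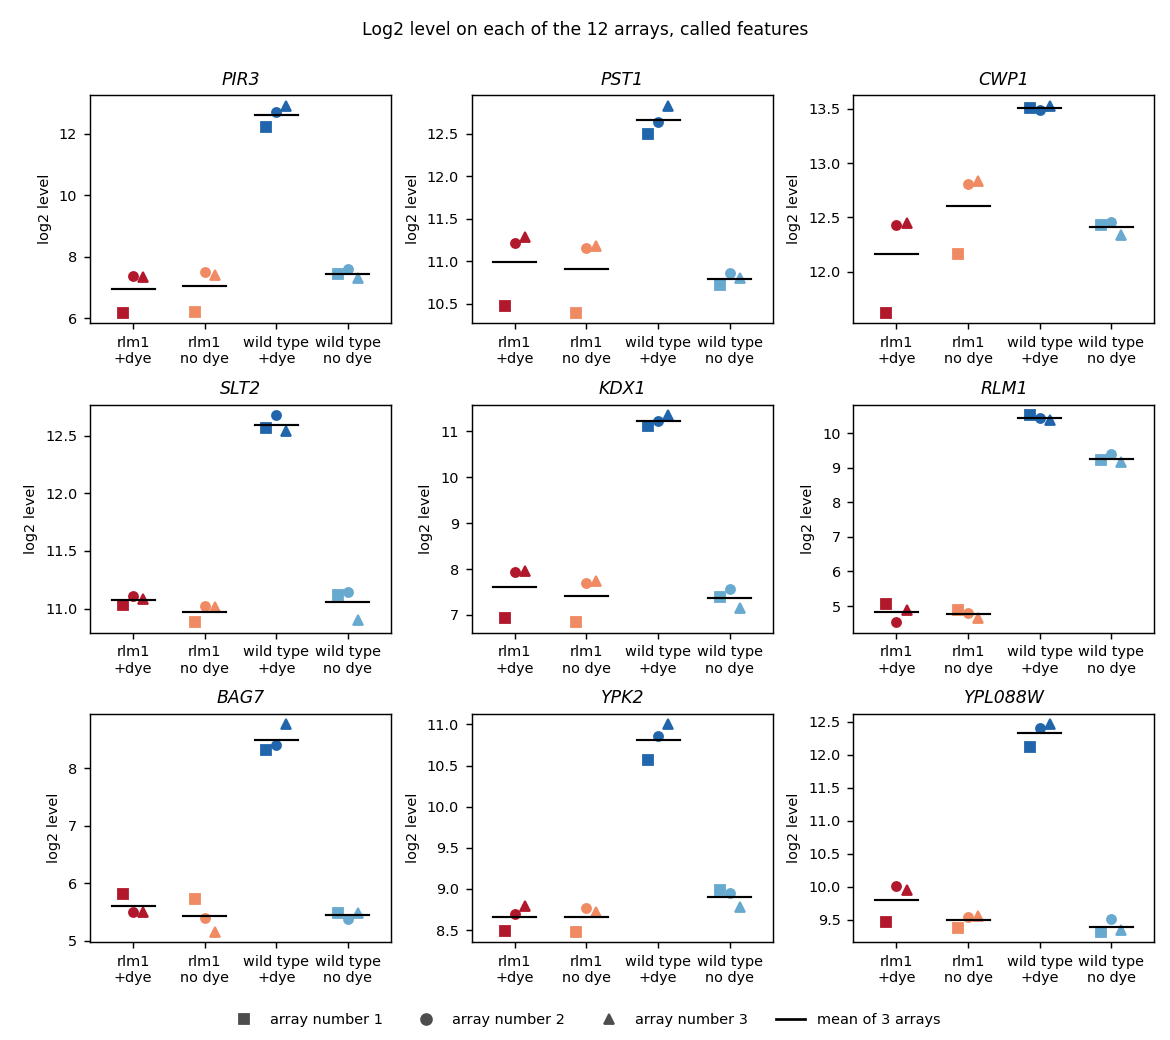
Log2 level on each of the 12 arrays for 9 called features, in rlm1 with and without the dye and in the wild type with and without the dye (square, circle and triangle for arrays 1, 2 and 3, line for the mean). The treated wild type stands above the other 3 groups in every panel. In that of RLM1 both rlm1 groups lie between 4.53 and 5.05, and the axes differ between panels and do not start at 0.

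Among wall proteins, PIR3 had the lowest difference of all features. It belongs to the proteins with internal repeats that are linked to glucan. PIR3 was at 6.18, 7.37 and 7.36 in treated rlm1 and at 6.22, 7.51 and 7.42 in untreated rlm1, against 12.24, 12.70 and 12.92 in the treated and 7.46, 7.61 and 7.31 in the untreated wild type. No rlm1 array exceeded the highest untreated wild-type array, 7.61, and the difference was -5.24 ± 0.52 (adjusted p = 7.7e-05). The treated rlm1 mean of 6.97 is near background, so the size and the rank are uncertain. Its neighbour PIR1, another member of the family, had a difference of -0.29 and was called lower by the paired fit and by neither of the other 2.

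PST1, a wall protein held by a glycolipid anchor, was at 10.47, 11.21 and 11.28 in treated and 10.39, 11.16 and 11.18 in untreated rlm1. In the wild type PST1 was at 12.50, 12.64 and 12.83 with the dye and 10.72, 10.86 and 10.80 without it. The difference was -1.79 ± 0.32 (adjusted p = 0.022). CWP1, a mannoprotein of the outer wall, had the lowest rlm1 response of the 17, negative on all 3 pairs. Its levels in rlm1 were 11.62, 12.43 and 12.45 with the dye and 12.16, 12.81 and 12.84 without it, against 13.51, 13.49 and 13.53 in the treated and 12.43, 12.46 and 12.34 in the untreated wild type. The response of CWP1 in rlm1 was -0.44 ± 0.21, lower by the paired fit (adjusted p = 0.0065), and the difference was -1.54 ± 0.29 (adjusted p = 0.03).

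YPS3, an aspartic protease of the cell surface, kept the largest response in rlm1 of the 17. Its treated levels were 8.88, 9.11 and 9.07 in rlm1 and 11.84, 11.76 and 11.60 in the wild type, and its untreated levels were 7.67, 8.44 and 8.21 in rlm1 and 9.34, 9.23 and 8.54 in the wild type. The treated and untreated arrays did not overlap in either strain. The response of YPS3 was 0.91 ± 0.22 in rlm1 (adjusted p = 0.44, and adjusted p = 0.022 in the paired fit) and 2.70 ± 0.22 in the wild type, a difference of -1.78 ± 0.32 (adjusted p = 0.022). YPS6, another protease of the family, had a difference of -1.66 ± 0.35 (adjusted p = 0.06, and adjusted p = 1.5e-04 in the paired fit). CRH1, which links chitin to glucan, had a difference of -0.94 ± 0.19 (adjusted p = 0.045), with a response of 0.37 ± 0.13 in rlm1 and 1.31 ± 0.13 in the wild type.

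Of 22 genes listed as Rlm1-linked wall genes, 19 could be tested. Like the other lists, this list was chosen with earlier results of these data known, so its counts are a description. Of these, 6 were lower in the fit of all arrays (0.318% of all features were), 16 in the paired fit (5.8%) and 12 without the number 1 arrays (2.17%), and 0 were higher in any. The 6 were SLT2 and KDX1, also in the signalling list, and PIR3, PST1, CWP1 and CRH1. The last 4 are also in the mannoprotein or beta-glucan lists that follow, so the counts of these lists are not separate. All 19 had a negative difference, with a median of -0.85, where 2720 of all 5659 features had a negative one. PRM5, a membrane protein also regulated by pheromone, was among those added by the paired fit (-1.83 ± 0.50, adjusted p = 0.28, and adjusted p = 9.7e-04 in that fit). Of 29 wall mannoproteins and proteases, 4 were lower in the fit of all arrays, 11 in the paired fit and 9 without the number 1 arrays, with 0 higher and a median of -0.17. Of 31 beta-glucan genes, CRH1 alone was called in the fit of all arrays. The paired fit had 9 lower (5.8% of all features were) and 1 higher (4.74%). The fit without the number 1 arrays had 5 lower (2.17%) and 1 higher (0.831%), with a median of -0.18 for the list. The lowest of that list was TRS65, once named KRE11, a subunit of a complex of Golgi traffic (-1.20 ± 0.25, adjusted p = 0.053, and adjusted p = 4.3e-04 in the paired fit), followed among called members by CRH1 and, at -0.74 each, the glucanase EXG2 and KNH1.

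Chitin synthesis had 0 of 17 calls by limma in the fit of all arrays. The paired fit had 7 lower (5.8% of all features were) and 1 higher (4.74%). Without the number 1 arrays 4 were lower (2.17%). GFA1, the first enzyme of the route to the chitin precursor, was at 11.48, 12.05 and 12.04 in treated and 11.44, 11.97 and 12.04 in untreated rlm1, against 13.33, 13.34 and 13.32 in the treated and 12.18, 12.11 and 12.02 in the untreated wild type. The treated wild-type arrays lay above all others, and the difference was -1.19 ± 0.24 (adjusted p = 0.052 in the fit of all arrays, adjusted p = 6.3e-05 in the paired fit). PCM1, a later enzyme of the same route, had a difference of -1.0 ± 0.25, and the chitin synthases CHS1 and CHS3 had -0.87 ± 0.31 and -0.85 ± 0.21. All 3 were called in the paired fit and without the number 1 arrays and missed the threshold in the fit of all arrays (adjusted p = 0.19, 0.87 and 0.18).

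The other called features lie outside these groups. YPL088W, a predicted alcohol dehydrogenase, had levels of 9.46, 10.01 and 9.95 in treated and 9.37, 9.55 and 9.56 in untreated rlm1, against 12.12, 12.40 and 12.46 in the treated and 9.32, 9.51 and 9.35 in the untreated wild type (difference -2.62 ± 0.22, adjusted p = 1.7e-05). It is the neighbour of RLM1 in the reference annotation, on the opposite strand by its locus tag. Its untreated level was 0.10 higher in rlm1 than in the wild type and was not called there, and whether the disruption of RLM1 acts on its neighbour under the dye was not tested. The neighbour on the other side, RPS6A, has no feature of its own here. FLC2, a flavin carrier of the endoplasmic reticulum, had a response of 0.17 ± 0.15 in rlm1 and 1.37 ± 0.15 in the wild type (difference -1.20 ± 0.22, adjusted p = 0.022).

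PRM10, a membrane protein named for its regulation by pheromone, was at 7.44, 8.35 and 8.45 in treated and 7.37, 8.09 and 8.10 in untreated rlm1. In the treated wild type it was at 10.72, 10.75 and 10.45, and in the untreated wild type at 8.77, 8.59 and 8.10. The difference was -1.93 ± 0.36 (adjusted p = 0.03), and its neighbour YJL107C, named here for that position, had a difference of -1.70 and was lower in the paired fit but not in the fit of all arrays. Another pair of neighbours were YNR066C, called at -1.98 ± 0.31 (adjusted p = 0.0075) but with a mean level under 7 in both rlm1 groups and the untreated wild type, so uncertain in size, and YNR065C at -2.38 ± 0.60 (adjusted p = 0.19, and adjusted p = 1.1e-04 in the paired fit). SHH3, a relative of a subunit of succinate dehydrogenase, had a difference of -1.98 ± 0.26 (adjusted p = 0.0013), but it stayed at 5.47 or lower in both rlm1 groups and the untreated wild type, so its size is uncertain. The last of the 18 is the probe set 1774824_at, which has no gene name here: it was at 10.14, 10.65 and 10.69 with the dye and 9.37, 10.14 and 10.13 without it in rlm1, against 13.16, 13.25 and 13.12 in the treated and 10.15, 10.20 and 10.09 in the untreated wild type (difference -2.42 ± 0.27, adjusted p = 2.6e-04).

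Beyond the 18, the lowest differences called by the paired fit and not by the fit of all arrays were those of CRG1, HSP12, SRL3, YNR065C, PLN1, YMR315W-A, SPO11, PRM5, YPR078C and KTR2. CRG1, a methyltransferase of the response to cantharidin, was at 6.01, 7.72 and 7.73 in treated and 5.37, 7.52 and 7.46 in untreated rlm1, against 11.66, 11.76 and 11.77 in the treated and 8.68, 8.78 and 8.18 in the untreated wild type. All 6 rlm1 arrays of CRG1 lay below all wild-type arrays, and the difference of responses was -2.81 ± 0.71 (adjusted p = 0.19, and adjusted p = 1.1e-04 in the paired fit). HSP12, a small stress protein of the membrane, was at 9.10, 9.60 and 9.74 in treated and 9.09, 9.93 and 10.14 in untreated rlm1. In the wild type HSP12 was at 11.36, 11.96 and 13.39 with the dye and 9.11, 9.22 and 10.72 without it, where number 3 was the highest in both groups. Its difference was -2.79 ± 0.73 (adjusted p = 0.23, and adjusted p = 1.9e-05 in the paired fit), and without the number 1 arrays of rlm1 the adjusted p was 0.086. SRL3, a relative of the G1 repressor Whi5, had -2.46 ± 0.55, PLN1, a protein of lipid droplets, -2.19 ± 0.54, and KTR2, a Golgi mannosyltransferase, -1.78 ± 0.50. These 3 were called in the paired fit and without the number 1 arrays. The sizes for CRG1, YMR315W-A, SPO11 and YPR078C involve a mean level under 7.

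General stress genes had 0 of 34 calls by limma in the fit of all arrays. The paired fit had 13 lower (5.8% of all features were), and 6 were lower without the number 1 arrays (2.17%). Of the 34 differences 31 were negative, against 2720 of all 5659, and their median was -0.45. Besides HSP12, the lowest were DDR2 (-1.55 ± 0.42), RTC3 (-1.43 ± 0.43) and MSC1 (-0.95 ± 0.64). Osmotic stress genes had 0 of 16 calls in the fit of all arrays, and 2 were lower without the number 1 arrays (2.17% of all features were). In the paired fit 4 were lower (5.8% of all features were) and 1 was higher (4.74%). The 4 were HSP12 and RTC3, which both lists hold, GCY1 (-0.61 ± 0.31) and PBS2, the MAP kinase kinase of that pathway (-0.50 ± 0.30). The median of the osmotic list was -0.23.

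In the other direction, ribosome biogenesis genes had 0 of 41 calls by limma in the fit of all arrays, 22 higher in the paired fit (4.74% of all features were) and 7 higher without the number 1 arrays (0.831%), with 0 lower in any. All 41 differences were positive, from 0.10 to 0.85, with a median of 0.39. Over all 5659 features 2720 differences were negative. RRP5, a factor of early ribosomal RNA processing, was at 11.60, 11.90 and 11.89 in treated and 11.60, 12.05 and 11.90 in untreated rlm1, against 11.28, 11.28 and 11.30 in the treated and 11.90, 11.97 and 12.04 in the untreated wild type. The treated wild type was lower than every other array, and the difference of 0.63 ± 0.18 was called in the paired fit (adjusted p = 0.0019) and without the number 1 arrays (adjusted p = 0.0032). DHR2 (0.85 ± 0.27), DBP2 (0.68 ± 0.23) and DRS1 (0.62 ± 0.24), all RNA helicases, were also called in the paired fit. FAF1, needed for the small ribosomal subunit but not in the list, had 0.87 ± 0.34 and was called only in the paired fit.

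The highest difference was that of APE1, a vacuolar aminopeptidase: it was at 10.34, 11.35 and 11.35 in treated and 10, 11.01 and 11.21 in untreated rlm1, against 9.28, 8.86 and 10.04 in the treated and 11.26, 11.19 and 11.37 in the untreated wild type. Its response was 0.27 ± 0.38 in rlm1 and -1.88 ± 0.38 in the wild type, a difference of 2.15 ± 0.54 (adjusted p = 0.18, 0.0014 in the paired fit and 0.027 without the number 1 arrays). MAE1, the mitochondrial malic enzyme, had 1.09 ± 0.28 and AAH1, adenine deaminase, had 1.04 ± 0.22, with responses of -0.03 and 0.10 in rlm1 against -1.12 and -0.94 in the wild type. In the fit of all arrays MAE1 and AAH1 missed the threshold (adjusted p = 0.21 and 0.06), and the paired fit called both. Without the number 1 arrays AAH1 was called (adjusted p = 0.014) and MAE1 was not (adjusted p = 0.096). PRM7 had a higher difference (1.17 ± 0.43) of another kind: its response was 0.70 ± 0.30 in rlm1 and -0.47 ± 0.30 in the wild type, and the paired fit called both. APE1, MAE1, AAH1, PRM7 and FAF1 are among the 10 highest genes called by the paired fit and not by the fit of all arrays. The remaining genes of these 10 were YLR154C-H (1.51 ± 0.56), YRO2 (0.98 ± 0.53), FRE4, a ferric reductase (0.90 ± 0.72), PPT1, a protein phosphatase (0.90 ± 0.48), and PRM6 (0.89 ± 0.65). Of the 10, only APE1 and AAH1 were also called without the number 1 arrays. A mean level under 7 enters the differences of YLR154C-H and PRM6.

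**Figure D3:**
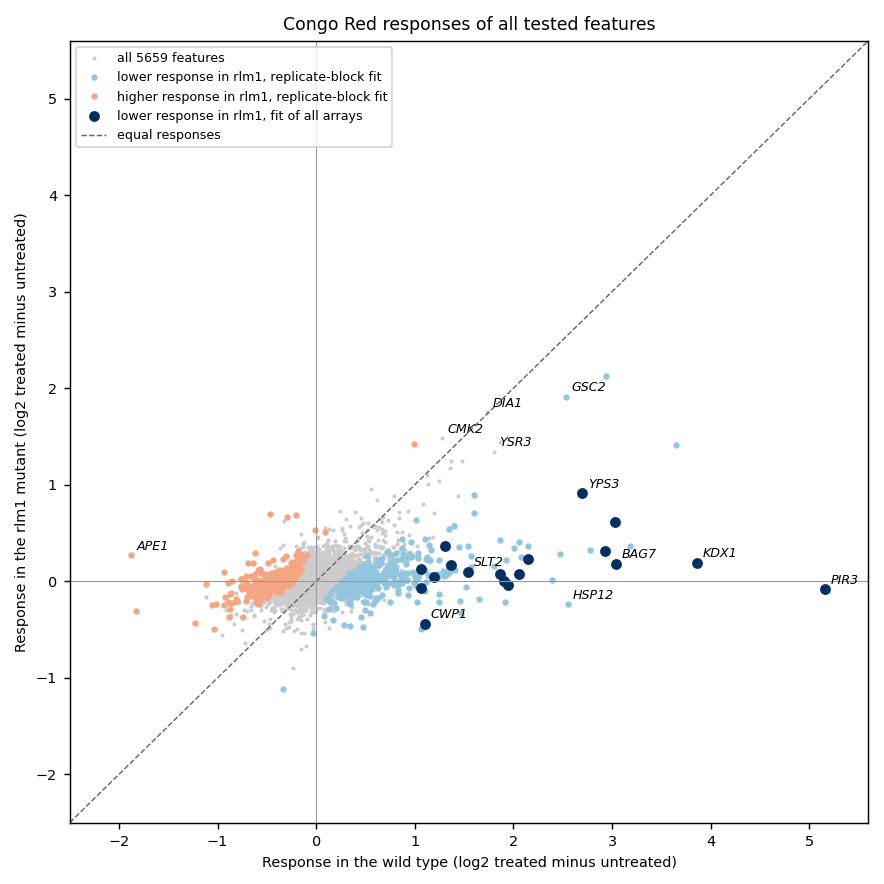
Response to Congo Red in rlm1 (vertical axis) and in the wild type (horizontal axis), both as log2 of treated minus untreated, for all 5659 features, with those called in the difference of responses coloured by fit (the replicate-block fit is the paired fit) and direction. The 18 features of the fit of all arrays have rlm1 responses from -0.44 to 0.91, DIA1 and CMK2 lie by the dashed line of equal responses, and APE1 lies at -1.88 in the wild type and 0.27 in rlm1.

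Some features responded to the dye in rlm1. In the fit of all arrays 5 features rose (0.0884%), in the paired fit 79 were higher (1.4%) and 20 lower (0.353%), and without the number 1 arrays 20 were called in either direction. The 5 are described here, and none of the 5 was called in the difference of responses by the fit of all arrays. The rlm1 response that chose the 5 is a term of that difference, so the absence of a call is only a description. DIA1, linked to invasive growth, was at 9.53, 10.15 and 10.17 in treated and 7.88, 8.42 and 8.29 in untreated rlm1, against 10.30, 10.26 and 10.49 in the treated and 8.67, 8.38 and 8.80 in the untreated wild type. Treated arrays were above untreated arrays in both strains, with responses of 1.75 ± 0.19 in rlm1 and 1.73 ± 0.19 in the wild type. The difference of DIA1 was 0.02, with a 95% interval from -0.55 to 0.59, and from -0.23 to 0.27 in the paired fit. CMK2, a kinase dependent on calmodulin, was at 10.81, 11.22 and 11.27 in treated and 8.94, 9.97 and 9.95 in untreated rlm1, against 11.38, 11.14 and 11.18 in the treated and 9.99, 9.87 and 10 in the untreated wild type. The difference of CMK2 was 0.20, with an interval from -0.50 to 0.90.

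GSC2, the inducible subunit of glucan synthase, responded in both strains but to different levels. It was at 11.51, 12.03 and 12.01 in treated and 9.46, 10.21 and 10.14 in untreated rlm1, against 12.90, 12.87 and 13.10 in the treated and 10.35, 10.14 and 10.79 in the untreated wild type. The response of GSC2 was 1.91 ± 0.22 in rlm1 and 2.53 ± 0.22 in the wild type, and the difference of -0.62 had an interval from -1.29 to 0.06. The paired fit called it lower (adjusted p = 0.018), and the fit without the number 1 arrays did not (adjusted p = 0.21). YSR3, a phosphatase of sphingoid base phosphates, had a difference of -0.46 with an interval from -1.01 to 0.09. The probe set 1779659_at, which has no gene name here, had -0.81, from -1.46 to -0.15, and was called only in the paired fit (adjusted p = 0.023). Its responses were 2.13 ± 0.22 in rlm1 and 2.94 ± 0.22 in the wild type.

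The 4 named genes of these 5 are in a list of calcineurin genes, the pathway through which calcium acts on the transcription factor Crz1. As the list was chosen with earlier results of these data known, this overlap is only a description. A part of calcineurin in these responses was not tested. Of 19 tested genes of that list, 0 were called by limma in the fit of all arrays. In the paired fit 4 were lower (5.8% of all features were) and 1 was higher (4.74%). Without the number 1 arrays 2 were lower (2.17%). The median difference was -0.14. The 4 were CHS1, GSC2, the calcineurin subunit CMP2 (-0.43 ± 0.23) and GYP7 (-0.43 ± 0.45), an activator of a vacuolar traffic GTPase named because it completes the count. PHO89, a sodium and phosphate carrier, was higher in the paired fit. Its levels were 12.79, 12.82 and 12.86 in treated and 11.25, 11.39 and 11.56 in untreated rlm1, against 12.89, 12.72 and 11.22 in the treated and 11.98, 11.64 and 10.25 in the untreated wild type, where number 3 was low in both groups. The difference of PHO89 was 0.44 ± 0.62 (adjusted p = 0.044 in the paired fit).

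**Figure D4:**
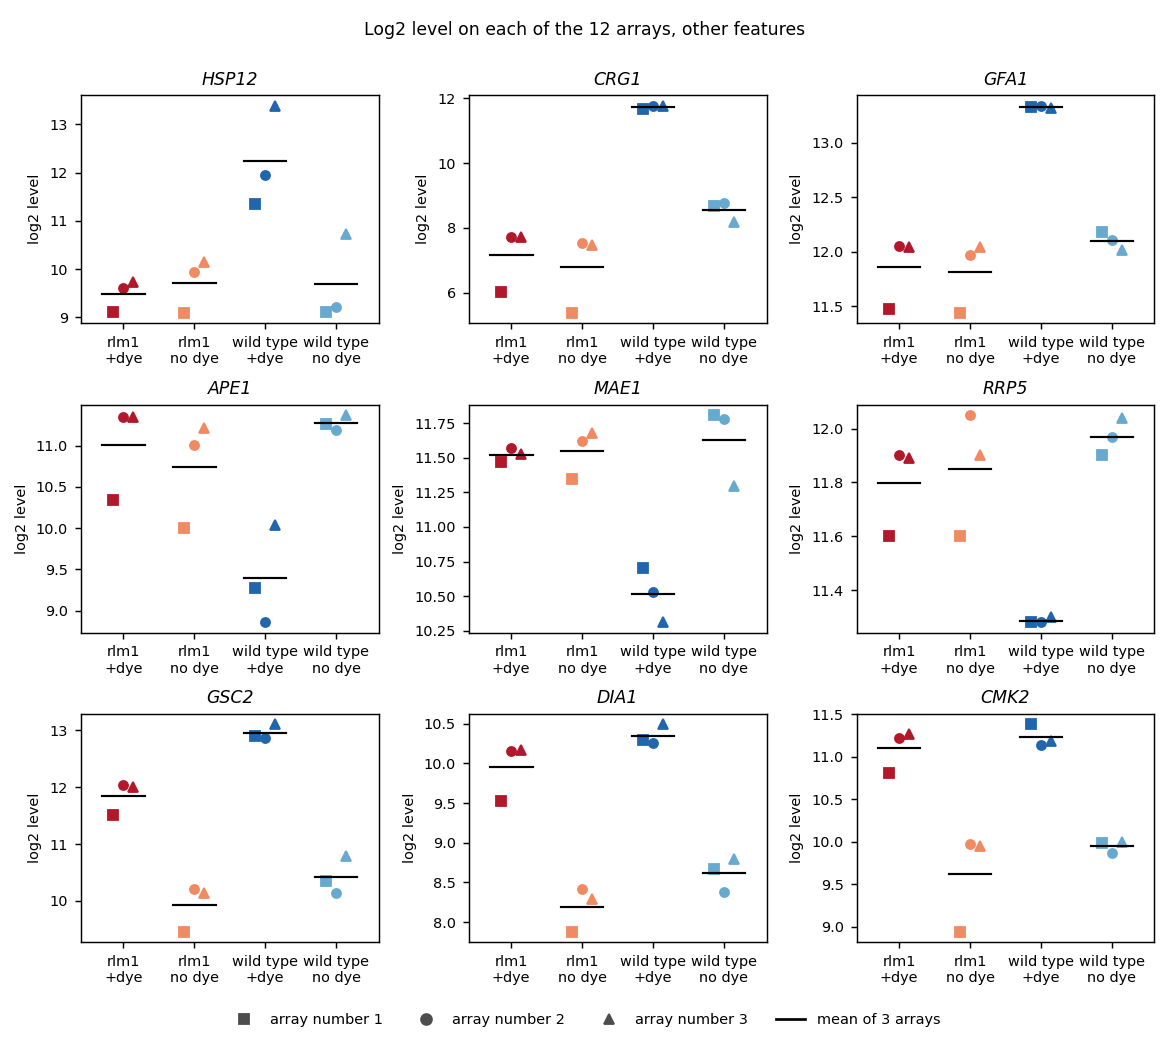
Log2 level on each of the 12 arrays for 9 further genes, drawn as in the plot of called features: HSP12, CRG1 and GFA1 (lower response in rlm1 in the paired fit), APE1, MAE1 and RRP5 (higher), and GSC2, DIA1 and CMK2 (called in the response of rlm1). In the first 6 panels the treated and untreated rlm1 arrays of a number lie at most 0.64 apart, and in the last 3 they lie at least 1.25 apart; axes do not start at 0.

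In the remaining lists the paired fit called 3 of 6 MAP kinase phosphatases, 3 of 12 sporulation markers and 3 or fewer members of each other list, where it called 10.5% of all features in either direction. Of 22 genes of the G1 regulator SBF and the cell cycle, the paired fit called SRL3 lower and HO, the mating-type endonuclease (0.63 ± 0.29), higher. Of 24 mating genes, PRM10 and MSG5 were lower in the fit of all arrays, and the paired fit added PRM6 as higher. Of 18 phosphate genes, the paired fit called GDE1, a phosphodiesterase of glycerophosphocholine, lower (-1.08 ± 0.29) and PHO89 higher. Of 21 drug efflux genes it called PDR3 (0.54 ± 0.27), ATR1 (0.51 ± 0.55) and TPO2 (0.45 ± 0.25) higher. Of 6 MAP kinase phosphatases it called PTP2 and MSG5 lower and YVH1, which also works in ribosome assembly, higher (0.56 ± 0.19). Of 12 sporulation markers it called SPO11 (-1.83 ± 0.48), SPS100 (-0.44 ± 0.36) and HOP1 (-0.41 ± 0.29) lower, all with a mean level under 7 in some group. Neither the 4 alpha-cell nor the 6 a-cell markers had a call in any of the 3 fits. By limma the fit of all arrays made 0 calls in the SBF, phosphate, drug efflux and sporulation lists. The summed level of the 12 sporulation markers ran from 73.1 to 82.4 in treated and 74.3 to 81.5 in untreated rlm1, against 84.1 to 85.5 in the treated and 80.8 to 81.5 in the untreated wild type. Their part in the results was not tested.

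**Figure D5:**
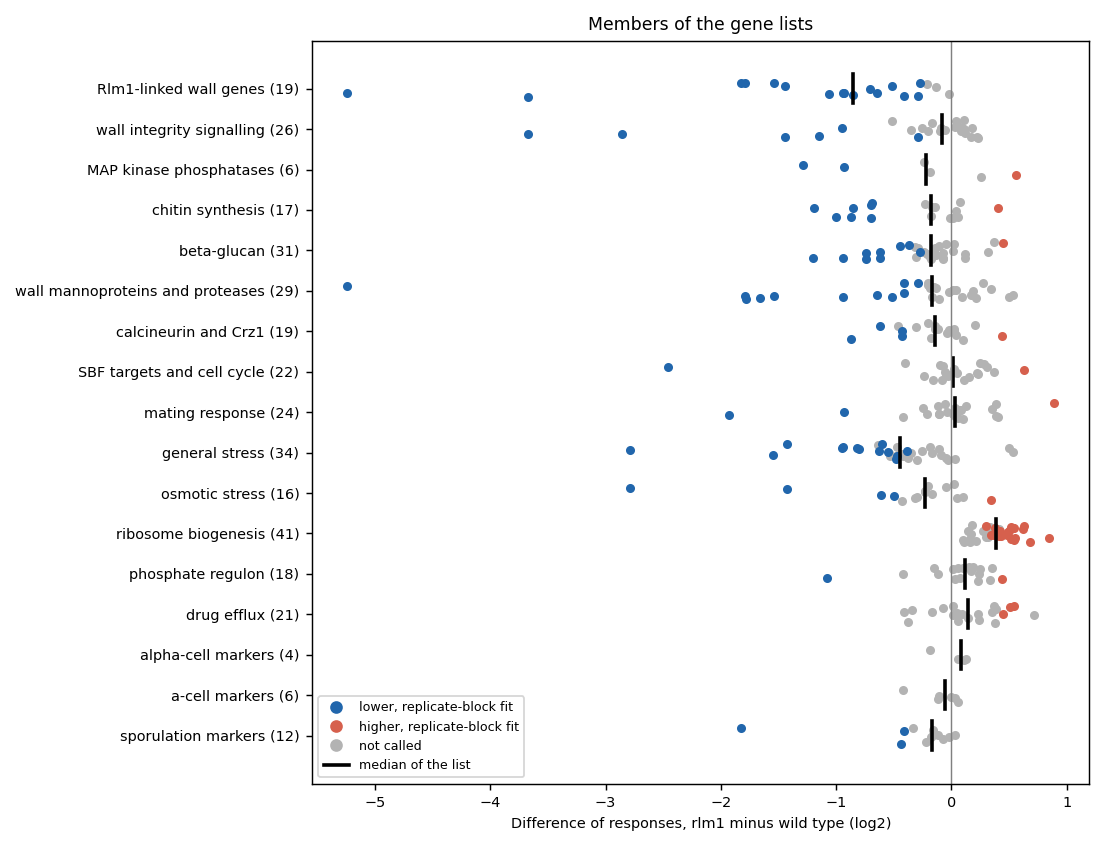
Difference of responses, rlm1 minus wild type (log2, horizontal axis), of the tested members of 17 gene lists, with the number tested in brackets, the median as a black bar, and the calls of the paired (replicate-block) fit in blue (lower) and red (higher). All 19 Rlm1-linked wall genes lie below 0 (median -0.85) and all 41 ribosome biogenesis genes above it (median 0.39).

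The same 4 groups can also be set strain against strain. Without the dye, 3 features were lower (0.053%) and 1 was higher (0.0177%) in rlm1 than in the wild type in the fit of all arrays. These were RLM1 (-4.47 ± 0.14), YLR154C-H (-2.30 ± 0.40) and SIR2 (-0.90 ± 0.13), and RSC8 (1.27 ± 0.21). With the dye, 191 were lower (3.38%) and 15 higher (0.265%), 206 in all. These 206 became 981 without both number 1 arrays of rlm1, 630 without untreated rlm1 number 1 and 106 without treated wild type number 2. The 4 calls without the dye became 7 without both number 1 arrays, and 1 without untreated rlm1 number 2 or 3 or untreated wild type number 1 or 2. Of the 17 features, 0 were called without the dye, where their differences ran from -0.93 to 0.19, and all 17 were called with it. Both strain comparisons are terms of the difference that chose the 17, so these counts are a description. The median over all features was -0.26 with and -0.27 without the dye, which moves with the low number 1 arrays, and -0.04 without the dye once they were left out.

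The swi3 arrays, which share no array with either rlm1 group, give a further reading of these features. In swi3 the 17 had responses from 0.23 to 3.38 with a median of 0.89. Of the 17, 9 were called higher there in the fit of all arrays, where 0.159% of all features were, and 15 in the paired fit, where 5.92% were. The 17 were chosen by a difference that holds the wild-type response, and all 17 were called higher with the dye there. The share over all features is therefore no like background for them, and these counts are a description. PIR3 had a response of 3.38 and PST1 of 1.80 in swi3, against -0.08 and 0.08 in rlm1, while GSC2 had 0.20 in swi3 and 1.91 in rlm1. CWP1, MSG5 and ASK10, also among the 17, had only 0.23, 0.24 and 0.31 in swi3. PIR3 and PST1 were chosen through a low response in rlm1 and GSC2 through a call there, so this contrast is a description. The difference between the mutants was not tested here.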

How the data were processed

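Total RNA of 18 samples was hybridised to Affymetrix arrays. The authors' deposited table gives log2 levels of 5814 probe sets, made with GCRMA per the submitters' processing notes, a method that corrects background, normalizes arrays and summarises probes. Its version and the set of arrays normalized together are not given in the sources used here. Their range shows the log2 scale. The series design describes 3 biological samples per condition. No depth applies, and the number of arrays limits the precision.

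Control probe sets (51 of Affymetrix, 47 reporters) were set aside. Among the other 5716, 5498 had 1 gene symbol, 218 none and 0 several. Names and neighbours came from NCBI's R64 gene table, which renewed 12 symbols. Where probe sets shared a gene, that with the highest mean was kept (49 dropped), and a log2 level of 4 on 3 arrays was required (8 removed). At least 95.3% of probe sets differed between any 2 of the 12 arrays.

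limma 3.58.1 (lmFit and eBayes, R 4.3.3) fitted 6 group means over the 18 arrays. P-values were adjusted by Benjamini-Hochberg over 5659 features, with a call at an adjusted p under 0.05. Errors are the SE of this fit. The procedure was tested on simulated data with independent noise and no array-wide shifts or pairs. That test cannot decide among the 3 fits. Treated and untreated arrays of 1 number were taken as pairs because their deviations from group means correlated above 0.1 in every case (r from 0.837 to 0.909 in rlm1 and from 0.454 to 0.81 in the wild type). This pairing comes from the data, not the labels, and some unlike numbers correlated too: 2 and 3 in rlm1 (0.765 and 0.871) and 1 and 2 in the wild type (0.413 and 0.112). In rlm1, treated number 3 correlated more with untreated number 2 (0.871) than with untreated number 3 (0.837). There the check mainly shows that number 1 stands apart, so it does not establish the pairs. The paired fit is the replicate block: it has a term for each number within a strain.

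Named are the features called in the difference, the 10 lowest and 10 highest genes called by the replicate block but not by the fit of all arrays, those called in the rlm1 response, up to 4 called members of each list, and RLM1 with its neighbours. The comparison, members and lists were chosen with earlier results of these data known. Alternatives were other normalizations, filters, priors and array weights, ordinary least squares, the 12 arrays alone, every probe set, and each array left out. A planned motif search in promoters was not run, as no promoter sequence was used here.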

Additional observations from a re-analysis of the deposited data

Results flagged for a closer look

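The response to Congo Red differed between rlm1 and the wild type, by the test of the difference itself, in 18 features. On the log2 scale, rlm1 minus wild type, the differences among wall proteins and enzymes were -5.24 for PIR3, -1.79 for PST1, -1.78 for YPS3, -1.54 for CWP1 and -0.94 for CRH1. Among signalling genes they were -3.67 for KDX1, -2.86 for BAG7, -1.90 for YPK2, -1.44 for SLT2, -1.15 for RLM1, -1.13 for ASK10 and -0.93 for MSG5. The others were -2.62 for YPL088W, -2.42 for the probe set 1774824_at, -1.98 for YNR066C, -1.98 for SHH3, -1.93 for PRM10 and -1.20 for FLC2.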

How the results depend on the processing

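None of the 18 called differences changed sign under any of the 24 alternatives. These use the arrays that gave the calls, so the kept sign is no further evidence for them. Of the counts, the lower calls of the difference (18) became 9 with the 12 arrays alone, 130 with quantile normalization, 79 with centring on array medians and 454 with array weights. The higher calls (0) became 70, 8 and 456 under the last 3 and 1 with a trended, robust prior, so lower calls made up 65%, 90.8% and 49.9% of calls under these 3. The replicate block, with the pairing taken from the data, gave 328 lower and 268 higher calls. It gave 99 calls in the rlm1 response and 1856 in the wild-type response. Without both number 1 arrays of rlm1 there were 123 lower and 47 higher, 20 and 1061 calls in the rlm1 and wild-type responses, and 7 and 981 calls between strains without and with the dye. Both choices together, added after seeing the data, gave 275 and 221, with 38 and 1909 in the responses. The rlm1 response (5) had 33, 26 and 275 calls under quantile normalization, centring and array weights, and the wild-type response (116) 975, 596 and 1636, and 70 with the 12 arrays alone. Between strains with the dye (206) there were 94, 1303, 932 and 2359 calls with the 12 arrays alone, quantile normalization, centring and array weights, and without the dye (4) there were 22 with quantile normalization, 1520 with array weights and 2 by ordinary least squares. The cause of these shifts was not tested. Leaving out single arrays gave 9 to 52 lower and 0 to 1 higher calls of the difference, 4 to 9 in the rlm1 response (9 without treated rlm1 number 1), 62 to 276 in the wild-type response (62 without untreated wild type number 3, 276 without treated rlm1 number 1), 1 to 5 between strains without the dye and 106 to 630 with it (106 without treated wild type number 2, 630 without untreated rlm1 number 1). Without treated rlm1 number 1 the median difference of all features was 0.25, and without untreated rlm1 number 1 it was -0.238. No replicate-block value exists between strains, and the promoter motif search was not run. Array weights were estimated gene by gene. Sizes that involve a level near background are uncertain.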
